A study of Mus musculus with 192 samples.

Results

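Liver and kidney of wild-type mice kept on the ground were compared by RNA sequencing. The samples were chosen by their labels alone, as every sample with genotype WT and condition Ground_control from these tissues, which gave 6 livers (Liv, mice 3, 5, 6, 7, 8 and 10) and 3 kidneys (Kid, mice 6, 7 and 10), 9 of 192 samples in the series. The 3 kidneys came from animals whose livers were also sequenced. These GC_WT mice were C57BL/6 males, given an age of 12 weeks in the labels, with both copies of Nfe2l2 (the gene for Nrf2) intact and no agent given. They were housed singly in the flight cages at a ground site on a 12-h light and 12-h dark cycle, handled as the flight mice were for behaviour tests and tail bleeding, and killed under isoflurane. The groups therefore differ by organ and by nothing else that the labels name. The part of each organ that was taken, and whether blood was flushed out, are not given in the sources used here. The 192 libraries cover 9 tissues of WT and Nrf2KO mice on the ground and in flight, and the other liver and kidney groups are used near the end only, to set the same contrast beside this one.

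Hepatocytes make glucose, urea, ketone bodies, bile acids, lipoproteins and most plasma proteins, and they oxidise and conjugate drugs and export them into bile. The nephron filters blood. Its proximal tubule takes back glucose, amino acids, phosphate and urate, secretes organic anions and cations into urine, and is fuelled mainly by mitochondrial oxidation. Both organs release glucose during fasting and both hold enzymes of drug metabolism, in many cases encoded by different genes of a family.

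Promoters of 4 genes on which the comparison turns are given here. Alb encodes serum albumin and Slc34a1 the sodium-phosphate cotransporter of the proximal tubule. Hao1 and Hao2 encode hydroxyacid oxidases of peroxisomes, 1 dominant in each organ. Each sequence runs 5′ to 3′ on the gene's strand, from 250 bases before to 49 after the first base of the RefSeq start (GRCm38.p6). Capitals mark matches, on either strand, to GTTAAT (the core of a homeodomain-type recognition sequence, ATTAAC on the other strand), to TTGCNNAA (a C/EBP recognition sequence, here matched on the reverse strand) and to TATAAA.
Alb, chr5:90460620-90460919, plus strand: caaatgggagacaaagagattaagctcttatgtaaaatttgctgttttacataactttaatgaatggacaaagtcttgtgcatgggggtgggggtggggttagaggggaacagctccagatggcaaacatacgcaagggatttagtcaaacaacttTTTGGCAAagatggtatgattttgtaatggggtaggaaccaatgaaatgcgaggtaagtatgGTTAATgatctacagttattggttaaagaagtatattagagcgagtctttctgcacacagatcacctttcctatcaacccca
Hao1, chr2:134554303-134554602, minus strand: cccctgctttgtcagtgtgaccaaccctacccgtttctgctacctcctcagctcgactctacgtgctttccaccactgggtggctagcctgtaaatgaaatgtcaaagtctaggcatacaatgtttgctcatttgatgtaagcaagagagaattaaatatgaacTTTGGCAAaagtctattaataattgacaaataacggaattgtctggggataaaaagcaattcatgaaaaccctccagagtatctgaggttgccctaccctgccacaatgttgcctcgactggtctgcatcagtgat
Slc34a1, chr13:55399398-55399697, plus strand: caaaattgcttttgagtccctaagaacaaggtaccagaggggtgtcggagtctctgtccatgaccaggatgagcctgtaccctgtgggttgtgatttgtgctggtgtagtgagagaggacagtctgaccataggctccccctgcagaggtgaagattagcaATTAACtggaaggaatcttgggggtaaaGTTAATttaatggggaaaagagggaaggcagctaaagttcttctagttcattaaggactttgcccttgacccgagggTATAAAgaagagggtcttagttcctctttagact
Hao2, chr3:98893181-98893480, minus strand: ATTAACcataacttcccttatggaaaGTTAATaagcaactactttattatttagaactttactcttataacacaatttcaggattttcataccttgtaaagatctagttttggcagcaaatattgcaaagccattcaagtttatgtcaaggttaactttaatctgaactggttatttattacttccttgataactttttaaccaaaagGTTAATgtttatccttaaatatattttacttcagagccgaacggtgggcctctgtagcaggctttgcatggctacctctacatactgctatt
The Alb window held GTTAAT at -32 and a C/EBP-type match at -94, and the Hao1 window held a C/EBP-type match at -86, counted from the start site. The Slc34a1 window held GTTAAT at -89 and -61, and the Hao2 window held them at -250, -224 and -42. The Slc34a1 entry starts 1461 bases inside the gene's outer boundary, so it is 1 of the starts that gene can use. GTTAAT was present in 11.4% of 298 promoters of list genes past 2-fold higher in liver, in 12.2% of 205 promoters of list genes past 2-fold higher in kidney, in 4.49% of 3540 promoters of genes that did not differ by the test, and in 7.10% of all 32851 promoters. A match to CAAAGTCCA, an HNF4-type sequence, was present in 3.02%, 0.976%, 0.339% and 0.475% of the same sets. TTGCNNAA was present in 17.1%, 10.7%, 8.22% and 10.8%, and TATAAA in 21.5%, 11.2%, 6.81% and 13.6%. The list genes were hand-picked, and were set beside all genes past 2-fold higher in liver (1933 promoters) and in kidney (2812). Over these the shares were 7.45% and 6.72% for GTTAAT and 1.09% and 0.462% for CAAAGTCCA, nearer to those of all promoters. For TTGCNNAA they were 12.8% and 8.68%, and for TATAAA 13.1% and 8.82%. With these 2 motifs the liver shares were nearer to all promoters. The kidney shares were further below all promoters than those of the list genes. The motifs can overlap, and a match is a description of letters and not a binding site. Of 783 genes in the lists used here, 616 had a promoter entry.

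Liver libraries held a median of 15043900 expected counts and kidney libraries a median of 14360900, so depth was alike. Kidney libraries listed more genes at a TPM (a level scaled to transcript length and to the library) of at least 1, 13253 to 13526 against 11354 to 12066 in liver. Transcripts of the mitochondrial genome took a median of 19.1% of TPM in kidney and 10.9% in liver, and the 10 most abundant genes took 34.5% to 35.6% and 23.4% to 26.0%. Differences below are log2 liver minus kidney ± SE from edgeR's quasi-likelihood test on rounded expected counts with TMM scaling, so a positive value is higher in liver. TMM lowered kidney values (factors 1.35 to 1.40) against liver (0.82 to 0.91) relative to the total count, and it set the median difference over all genes at -0.03, against -0.71 with total counts only. For that reason a gene with a moderately higher TPM in kidney can have a log2 difference near or just above 0. The liver of mouse 8 stood apart, with 118 of 7862 genes over 2-fold from the median liver against 35 to 68 in the others. Highest and lowest values that it set are not marked in every paragraph. Named genes for which it was an outlier are listed among the results flagged for a closer look. Libraries of the organs carry sample numbers from separate ranges, so that tissue and library set cannot be told apart.

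Of the deposited genes 14932 had enough counts for the test, and 11040 of them (73.9%) were called at an adjusted p under 0.05, 5312 higher in liver (35.6%) and 5728 higher in kidney (38.4%). Against a null of a 2-fold difference, 5123 (34.3%) passed, 2124 higher in liver (14.2%) and 2999 higher in kidney (20.1%), and these are called past 2-fold below. The TPM of liver and kidney samples did not overlap for 10986 genes (73.6%). The share of calls that were higher in liver was 48.1% with TMM, 39.6% with upper quartile scaling, 23.8% by limma on log2(TPM + 1) and 20.8% with total counts only. Of 670 list genes that were called, 36 turned sign with total counts only, and 0 of these were past 2-fold.

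Marker genes followed the labels. All 13 hepatocyte markers were higher in liver, and their summed TPM was 98786 to 122920 in liver and 441 to 524 in kidney. Alb was at 41109, 43674 and 57850.5 TPM in the livers (lowest, median and highest of 6, as in all such triples for liver below) and at 4.89, 4.07 and 4.16 TPM in the kidneys of mice 6, 7 and 10 (the order used throughout), a log2 difference of 13.96 ± 0.26. Serpina3k, a secreted protease inhibitor, had no count in any kidney and 7134, 8045 and 8393 TPM in the livers, at least 241119-fold higher in liver (a bound set by 3 counts over the group at 0, as for all such bounds). Hnf4a, the nuclear receptor that hepatocytes share with the proximal tubule, was the exception among these markers, at 225, 290.1 and 363 against 335, 269.8 and 299.7 TPM with overlapping groups. Its log2 difference of 0.57 ± 0.18 (adjusted p = 0.015) did not pass with upper quartile scaling or without the kidney of mouse 7 (0.49, adjusted p = 0.0701), and it turned to -0.11 with total counts only.

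All 13 kidney epithelial markers were higher in kidney, 7 of them with no count in any liver, and their summed TPM was 68354 to 72823 in kidney and 0.22 to 1.57 in liver. Kap, an androgen-regulated protein of the proximal tubule, was the most abundant kidney transcript at 67856, 63346 and 63471 TPM, had no count in liver, and was at least 416980-fold higher in kidney. Markers of podocytes (Nphs1), thick ascending limb (Umod, Slc12a1), distal tubule (Slc12a3, Pvalb) and collecting duct (Aqp2) were all past 2-fold higher in kidney. Among 20 markers of other cells, 13 had enough counts for the test. Their summed TPM, over all 20, was 699 to 956 in liver and 1339 to 1662 in kidney. Clec4f (Kupffer cells), Alas2 (haem synthesis) and Cyp17a1 (steroid synthesis) were higher in liver, and 7 were higher in kidney, among them Cd74 (-1.27 ± 0.21), Pecam1 (-0.66 ± 0.10) and Hbb-bs (-0.51 ± 0.14). The haemoglobin genes Hba-a1 (-0.27 ± 0.17, adjusted p = 0.18) and Hba-a2 (-0.03 ± 0.15, adjusted p = 0.853) and the leukocyte gene Ptprc (0.13 ± 0.20, adjusted p = 0.591) did not pass. The adrenal markers Cyp11b1 and Cyp11b2 and the pancreas marker Prss2 were at 0 in all 9 samples. The other markers of these tissues were present. Cyp17a1 (adrenal) was past 2-fold higher in liver. Cela1 (pancreas) was past 2-fold higher in kidney, at -1.98 to -1.65 with 1 sample left out. Adipoq, Plin1, Acta1 and Ckm had too few counts to test. In bulk tissue, fewer cells of a type and less RNA per cell cannot be told apart.

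The 19 functional lists and 3 marker lists held 783 different genes. Of these 741 were tested, 382 were higher in liver and 288 in kidney, 71 were not called, and the median log2 difference was 0.44 against -0.03 over all genes. Past 2-fold were 310 in liver (41.8% of those tested) and 208 in kidney (28.1%), against 14.2% and 20.1% over all genes. With 35.6% and 38.4% called higher in liver and in kidney over all genes, these are the background for each list below. Both organs held 489 of the 783 genes at a mean TPM of at least 1, and within these 191 were past 2-fold higher in liver, 84 in kidney, 149 were called by less and 65 were not called. The other genes reached that mean TPM in 1 organ only, 116 in liver and 128 in kidney, apart from 50 below a TPM of 1 in both. No count was seen in any kidney for 44 list genes and in any liver for 51.

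**Figure D1:**
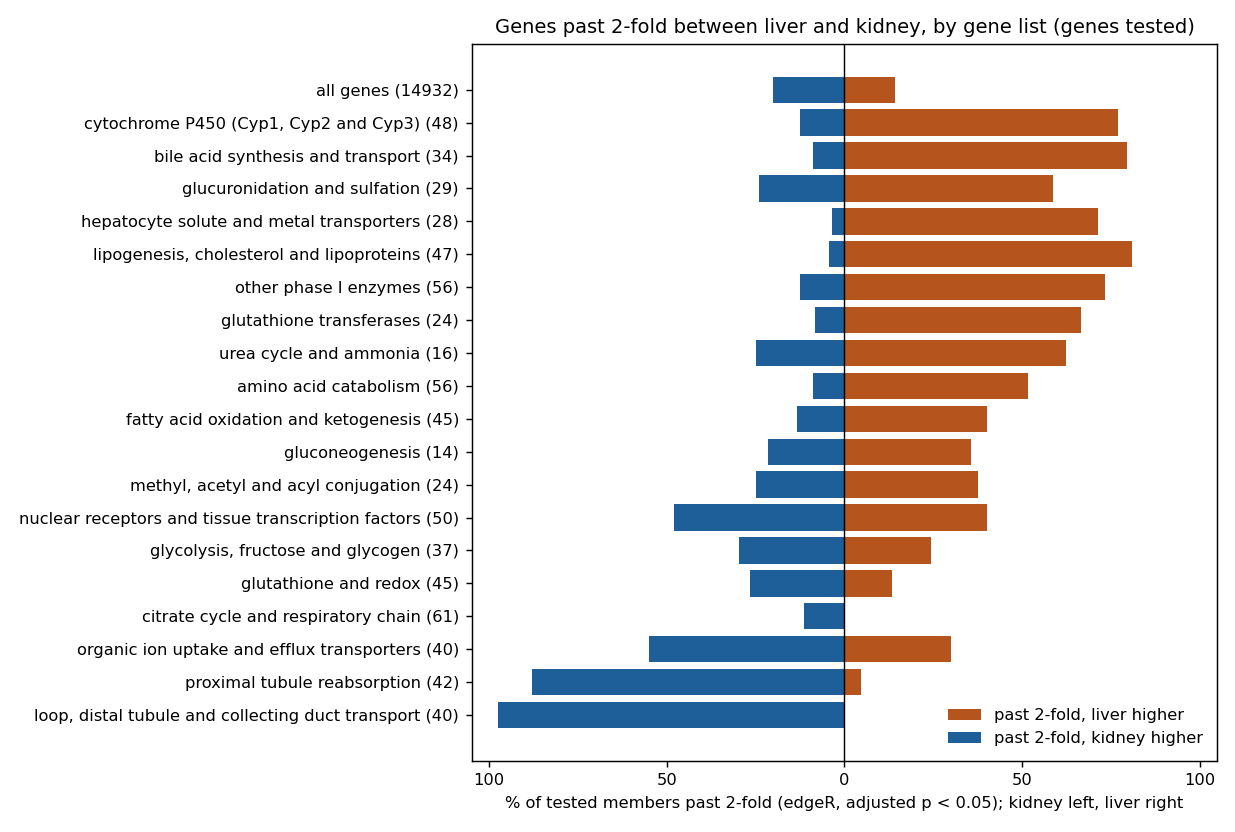
Percent of the tested members of each functional list, and of all 14932 genes, that were past 2-fold between 6 livers and 3 kidneys of WT ground mice (edgeR, adjusted p under 0.05), with genes higher in kidney to the left and genes higher in liver to the right of 0. Lipogenesis, bile acid and cytochrome P450 lists reach furthest to the liver side and the tubule transport lists furthest to the kidney side, while the citrate cycle and respiratory chain list has no bar on the liver side.

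Genes of glucose production were divided between the organs, and their summed TPM overlapped, at 2286 to 4141 in liver and 3054 to 3365 in kidney. Of 14 tested genes 6 were higher in liver and 5 in kidney, 5 and 3 past 2-fold, with a median log2 difference of 0.43. Over all genes tested, 35.6% were higher in liver and 38.4% in kidney, with 14.2% and 20.1% past 2-fold. The list's liver count past 2-fold was 3 with DESeq2, limma, a random mouse term or total counts only. Pck1, the rate-limiting cytosolic carboxykinase, was at 455, 1162 and 1730.3 TPM in liver and 1292, 976 and 1053 TPM in kidney. Its groups overlapped, and the log2 difference of 0.73 ± 0.34 did not pass (adjusted p = 0.0707), although it did without the liver of mouse 10 (0.90, adjusted p = 0.00224). G6pc, which releases free glucose, was higher in kidney, at 350.3, 468 and 455 TPM against 69.7, 186 and 227 in liver, a log2 difference of -0.80 ± 0.32 (adjusted p = 0.039) that did not pass with DESeq2 (-0.81, adjusted p = 0.0577), without any single kidney (-0.73 to -0.91) or without the liver of mouse 5 (-0.83, adjusted p = 0.0512) or mouse 10 (-0.67, adjusted p = 0.053). Its samples did not overlap. Fbp1, the main fructose bisphosphatase of both organs, was at 623, 664 and 980.2 and 749, 702 and 797 TPM and overlapped, with a log2 difference of 0.53 ± 0.10 that turned to -0.14 with total counts only. Its paralog Fbp2 was higher in kidney (17.1, 12.9 and 16.6 against 0.07, 0.15 and 0.45 TPM, -5.58 ± 0.30). Pcx, pyruvate carboxylase, did not pass (0.16 ± 0.09, adjusted p = 0.142), except without the liver of mouse 8 (0.20, adjusted p = 0.0376).

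Other genes of this list differed by more. The alanine transaminases Gpt (3.95 ± 0.11) and Gpt2 (4.10 ± 0.13), the glucose transporter Slc2a2 (1.98 ± 0.16) and aspartate transaminase Got1 (1.88 ± 0.36) were past 2-fold higher in liver. Mitochondrial Pck2 (-1.31 ± 0.16) and the coactivator Ppargc1a (-2.13 ± 0.17) were past 2-fold higher in kidney. Lpin1, a phosphatidate phosphatase, was past 2-fold higher in liver (2.90 ± 0.87, adjusted p = 0.0102), yet its livers ran from 20.8 to 269.9 TPM and overlapped the kidneys (32.3, 17.9 and 21 TPM), and it was not called by limma on log2(TPM + 1) (1.68, adjusted p = 0.0757).

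Genes of glycolysis, fructose and glycogen use lay on both sides, often as isoforms of 1 enzyme. Of 37 tested, 13 were higher in liver and 15 in kidney, 9 and 11 past 2-fold, with a median of 0.07. The shares over all genes tested were 35.6% and 38.4%, with 14.2% and 20.1% past 2-fold. The list's summed TPM was 6127 to 7102 in liver and 10616 to 10930 in kidney. Hk1, the high-affinity hexokinase, was at 0.88, 1.1 and 1.4 TPM in liver against 39.6, 42.4 and 41.9 TPM in kidney (-4.52 ± 0.12), and its samples did not overlap. Gckr, a regulator of glucose use (9.94 ± 0.14), and the liver forms of glycogen phosphorylase (Pygl, 5.60 ± 0.14), glycogen synthase (Gys2, 4.07 ± 0.23) and pyruvate kinase (Pklr, 3.83 ± 0.22) were past 2-fold higher in liver. Their counterparts Gys1 (-2.51 ± 0.16), Pygb (-2.04 ± 0.17) and Pkm (-3.59 ± 0.13) were past 2-fold higher in kidney. Ldhb, the lactate dehydrogenase subunit of lactate-consuming tissues, stood at 1203, 1131 and 1201 TPM in kidney and 1.32, 2.06 and 2.41 TPM in liver (-8.63 ± 0.12), and Ldhd, the D-lactate dehydrogenase, was also higher in kidney (-1.83 ± 0.10). Khk (ketohexokinase), which begins fructose use, was higher in kidney at 400.3, 384 and 367 against 157, 186 and 207 TPM (-0.43 ± 0.12). Gapdh (-0.11 ± 0.09) and Pfkl (0.07 ± 0.08) were not called.

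Of the urea cycle genes, Cps1, Otc and Arg1 had counts in liver alone, and Ass1 and Asl were present in both organs. Of 16 genes of urea synthesis and ammonia handling 12 were higher in liver and 4 in kidney, 10 and 4 past 2-fold, with a median of 1.82. Cps1 (1:67123026-67231259, GRCm38), which commits ammonia to urea, was at 1000.1, 1171 and 1428 TPM in liver with no kidney count, at least 100336-fold higher. Otc (221, 222 and 248 TPM) and Arg1 (866, 946 and 1332 TPM), the ornithine transcarbamylase and the arginase of the cycle, likewise had no kidney count and were at least 8033-fold and 21419-fold higher in liver. Arg2, another arginase gene, lay on the kidney side, at a log2 difference of -4.53 to -3.79 with 1 sample left out. Ass1, which joins citrulline to aspartate and in kidney serves arginine synthesis, was among the abundant genes of both organs at 2239, 2490.2 and 4165 TPM in liver and 3135, 2864 and 3027 TPM in kidney. Its groups overlapped and its log2 difference of 0.45 ± 0.14 (adjusted p = 0.0127) was not called with upper quartile scaling or without the kidney of mouse 7, and turned to -0.22 with total counts only. Asl, the next enzyme, was higher in liver, at 421, 452 and 600.4 against 113, 89.1 and 93.2 TPM (2.86 ± 0.11).

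Ammonia and glutamine genes were on both sides. Gls2, which releases ammonia from glutamine, was at 145, 160.0 and 312 TPM in liver and 0.12, 0.16 and 0.12 TPM in kidney (10.95 ± 0.36). Slc38a3, a glutamine transporter used by both organs, was at 395, 570.5 and 713 TPM in liver and 17.7, 14.9 and 18.5 TPM in kidney (5.63 ± 0.23). Glutamine synthetase, Glul, was present in both (223, 402 and 459 and 401, 385 and 384 TPM, 0.60 ± 0.22, adjusted p = 0.0279) with overlap, was lowest in the liver of mouse 8, and was not called without any single kidney (0.58 to 0.63, adjusted p = 0.0606 to 0.0807), without the liver of mouse 6 or with upper quartile scaling, and turned to -0.09 with total counts only. The ammonia channel Rhcg of the collecting duct was at 63.2, 61.4 and 57.1 TPM in kidney with no liver count (at least 1628-fold), and Rhbg was higher in kidney too (-2.35 ± 0.27).

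Amino acid breakdown was mostly a liver program with a few kidney enzymes. Of 56 tested genes 39 were higher in liver and 7 in kidney, 29 and 5 past 2-fold, with a median of 1.28, and the liver count past 2-fold was 19 by limma on TPM and with total counts only. Tat (tyrosine transaminase, 709.9, 1396 and 1681 TPM) and Tdo2 (tryptophan dioxygenase, 589.9, 667 and 747 TPM) had no kidney count and were at least 45653-fold and 21558-fold higher in liver. Hpd, the next enzyme of tyrosine breakdown, was at 1587, 1726 and 1993 against 38.3, 36.1 and 35.8 TPM (6.17 ± 0.10). The methyl cycle genes Gnmt (6.61 ± 0.17), Bhmt (10.48 ± 0.54) and Mat1a were also liver genes, while Mat2a, the methionine adenosyltransferase of other tissues, was higher in kidney (-2.15 ± 0.12). Hao1 (2:134497361-134554368), which makes glyoxylate from glycolate, was at 151, 179 and 197 TPM in liver and 0, 0 and 0.05 in kidney, a ratio of 16209 (95% counting interval 2909 to 640210.0). Hao2 (3:98874521-98893239) was at 0, 0.05 and 0.15 and 95.2, 126 and 130.02 TPM (-10.44 ± 0.24, or -11.09 without the liver of mouse 7), the reverse. Agxt, which clears glyoxylate, had no kidney count (at least 2273-fold). Dao, D-amino acid oxidase, was at 328, 292 and 318 TPM in kidney with no liver count (at least 6373-fold), and Gatm, the first step of creatine synthesis, was at 289, 267 and 336 against 2.43, 3.25 and 5.55 TPM (-5.80 ± 0.16). Hibadh (-0.08 ± 0.07), Prodh (-0.11 ± 0.10) and Aldh6a1 (0.05 ± 0.08) did not pass.

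Genes of fatty acid oxidation and ketone metabolism were more often higher in liver. Their summed TPM was higher in kidney, at 11277 to 12936 against 8147 to 10823, but this rested on Cyp4b1 and Acsm2, given below. Without those genes the kidney sum would lie below the liver sum. Of 45 tested genes 32 were higher in liver and 10 in kidney, 18 and 6 past 2-fold, with a median of 0.98, and the liver count past 2-fold was 8 by limma on TPM and with total counts only. Oxct1, which activates ketone bodies for oxidation and which hepatocytes lack, was at 438, 411 and 453 TPM in kidney and 1.16, 1.53 and 2.93 TPM in liver (-7.53 ± 0.16). Its samples did not overlap. Peroxisomal Acaa1b (2.06 ± 0.15) and the acyl-CoA synthetase Acsl1 (3.57 ± 0.20) were past 2-fold higher in liver. Among the most abundant kidney genes of this list were Cyp4b1, a fatty acid and xenobiotic hydroxylase (3083, 2592 and 2933 against 7.3, 10.7 and 13.6 TPM, -7.48 ± 0.16), and the medium-chain acyl-CoA synthetase Acsm2 (2584, 2218 and 2478 against 0.32, 1.42 and 1.79 TPM, -10.14 ± 0.34).

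Lipoprotein and lipid synthesis genes were higher in liver almost throughout. Of 47 tested, 40 were higher in liver and 4 in kidney, 38 and 2 past 2-fold, with a median of 3.02, and their summed TPM was 61335 to 72270 in liver and 1770 to 1911 in kidney. Apoe, an apolipoprotein also made outside the liver, was at 17752, 19291 and 20524 against 186, 218 and 200.3 TPM (7.18 ± 0.16), and Apoa1 (14.07 ± 0.27), Apoa2 (10.82 ± 0.18) and Apoc1 (13.41 ± 0.22) differed by more. Scd1, the stearoyl-CoA desaturase, was at 6.38 ± 0.29 on the log2 scale. Lpl, the lipoprotein lipase that adult hepatocytes hardly make, was an exception at 348, 269 and 302 TPM in kidney and 2.08, 3.1 and 6.44 TPM in liver (-5.87 ± 0.25). Hmgcs1, the cytosolic synthase of the cholesterol pathway, was also higher in kidney, at 232, 186 and 213 against 16.9, 30 and 55.2 TPM (-2.14 ± 0.24). Sterol genes varied between livers, and on the 3 mice with both organs the kidney count past 2-fold was 4, with or without mouse as a block. Sqle (squalene epoxidase, 1.28, 4.67 and 13.4 against 20.1, 18.2 and 19.6 TPM) did not pass with 9 samples (-1.09 ± 0.49, adjusted p = 0.0606) and did without the liver of mouse 8 (-1.41, adjusted p = 0.0138) or of mouse 5 (-1.33, adjusted p = 0.0305), on those 3 mice with the block (-2.34, adjusted p = 3.53e-05) and with mouse as a random term (-1.59, adjusted p = 0.00388). Idi1 went from -0.11 ± 0.38 (adjusted p = 0.808) to -0.84 (adjusted p = 0.000365) on those 3 mice with the block, and Srebf2 from 0.27 ± 0.14 (adjusted p = 0.114) to 0.29 (adjusted p = 0.00531).

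Bile acids were made, taken up and exported by genes of the liver, with recovery transporters in kidney. Of 34 genes tested 29 were higher in liver and 4 in kidney, 27 and 3 past 2-fold, with a median of 4.21. Cyp7a1, the rate-limiting enzyme of synthesis, was at 39.7, 80.4 and 162 TPM in liver, with no kidney count and at least 5424-fold higher, and Cyp8b1, which sets the share of cholic acid, was at 132, 253 and 313 against 0.1, 0.16 and 0 TPM (11.85 ± 0.48, or 12.49 without the kidney of mouse 7). Slc27a5 (12.67 ± 0.18) and Baat (8.63 ± 0.19), which activate bile acids and conjugate them to taurine, were past 2-fold higher in liver, as was the carrier protein Scp2 (3.22 ± 0.10). Uptake from blood (Slc10a1, 324, 366 and 436 against 0.49, 0.47 and 0.48 TPM, 10.14 ± 0.19) and export into bile (Abcb11, 88.7, 109 and 152 TPM and no kidney count, at least 8767-fold) were high in liver. Slc51a and Slc51b, the basolateral exporter's subunits, were at 41, 31.4 and 33.5 and 75.4, 81.8 and 76.4 TPM in kidney, Slc51a with no liver count (at least 1198-fold) and Slc51b at 0, 0.075 and 1.86 TPM in liver (-6.89 ± 0.46), where the highest value was the liver of mouse 10, without which it was -8.51. Slc10a2, the apical importer, was at 25.2, 23.6 and 27.3 TPM in kidney and 7.03, 12.1 and 18.8 TPM in liver. Its samples did not overlap, its log2 difference of -0.48 ± 0.21 missed the threshold (adjusted p = 0.054), and it passed with DESeq2 (-0.49, adjusted p = 0.0366), without the liver of mouse 8 or of mouse 10, and with mouse as a block (-0.79, adjusted p = 0.00295, or -0.59, adjusted p = 0.0152, as a random term).

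Citrate cycle and respiratory chain genes were higher in kidney by small amounts. All 61 genes were detected in both organs, 44 were higher in kidney and 4 in liver, but 7 and 0 were past 2-fold, with a median of -0.36 and a summed TPM of 21872 to 22857 in kidney and 10620 to 12219 in liver. The share past 2-fold in kidney was 11.5%, below the 20.1% of all genes tested, of which 38.4% were higher in kidney. The kidney count past 2-fold depended on scaling, at 16 by limma on TPM and 26 with total counts only. The isocitrate dehydrogenases Idh3g (-1.87 ± 0.05), Idh3a (-1.40 ± 0.08) and Idh2 (-1.59 ± 0.09) were past 2-fold higher in kidney. Slc25a4, the ADP/ATP carrier of muscle and kidney, had the widest gap, at 144, 146 and 141 against 1.43, 2.25 and 3.12 TPM (-5.38 ± 0.15). Fumarase, Fh1, was the highest in liver relative to kidney (1.08 ± 0.10). Atp5f1 (-0.11 ± 0.06) and Uqcrb (-0.17 ± 0.08) were not called.

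Reabsorption genes of the proximal tubule were mostly at trace levels in liver. Of 43 genes 27 reached a mean TPM of 1 in kidney alone and 15 in both organs, 42 were tested, 37 were higher in kidney, all past 2-fold, and 4 were higher in liver, 2 past 2-fold (1 with DESeq2 or upper quartile scaling, 0 by limma and with total counts only), with a median of -8.81. Slc34a1 (13:55398187-55415592) was at 2727, 2446 and 2658 TPM in kidney and at 0, 0 and 0.04 in liver, a kidney to liver ratio of 134696 (95% counting interval 37288 to 1112230.0). Slc22a12, the urate exchanger (19:6535845-6543032), was at 1150.2, 959.9 and 1142 TPM in kidney with no liver count (at least 30921-fold). The glucose cotransporter Slc5a2 (276, 239 and 231 TPM), the neutral amino acid transporter Slc6a19 (38, 42.8 and 38.6 TPM), its partner Cltrn (1045, 1123 and 1032 TPM) and the cystine transporter Slc7a9 also had no liver count, with bounds of 7314-fold, 2050-fold, 16892-fold and 1539-fold. Ggt1, which splits glutathione at the brush border, was at 964, 852 and 918 against 0.05, 0.09 and 0.14 TPM (-12.67 ± 0.14). The exceptions were Slc2a9, a urate transporter (9.69, 13.6 and 14.6 against 7.52, 5.34 and 6.12 TPM, 1.53 ± 0.15), and Slc6a13, a taurine and GABA transporter (90.1, 96 and 129 against 67, 70.7 and 66.5 TPM, 1.18 ± 0.08), both past 2-fold higher in liver without overlap. Urate genes thus fell on both sides. Uox, which degrades urate in mice, was at 739.9, 844 and 1021 TPM in liver with no kidney count (at least 34526-fold), and Xdh, which makes it, was at 53.1, 65.2 and 68 against 10.6, 10.6 and 10.6 TPM (3.19 ± 0.10). Slc15a1 had too few counts to test.

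All 40 transport genes of the loop, distal tubule and collecting duct were higher in kidney, 39 past 2-fold, with a median of -10.12, or -8.94 with the 14 genes that had no liver count set at their bounds. Umod (uromodulin, 983, 1174 and 927 TPM, at least 34885-fold), Slc12a1 (the furosemide-sensitive cotransporter, at least 10032-fold) and Fxyd2 (the kidney sodium pump modulator, 4747, 4728 and 4615 TPM, at least 34916-fold) had no liver count. Atp1b1, a beta subunit of the pump, was present in both organs, at 1154, 1086 and 1032 against 29.6, 31.8 and 58.4 TPM (-4.31 ± 0.15). Aqp2, the vasopressin-regulated water channel, was at 112, 262 and 147 TPM with no liver count (at least 3115-fold). Its level in the kidney of mouse 7 was well above the other 2. That kidney was also the highest of the 3 for Slc14a2, the urea transporter of the inner medulla (9.75, 16.4 and 8.67 TPM), Fxyd4 (13.9, 20.9 and 11.1 TPM), Akr1b3, the sorbitol-forming reductase (39.7, 146 and 36.2 TPM), and Krt19 (2.67, 4.33 and 1.32 TPM), genes noted after their values were seen. Krt19 (-1.04 ± 0.35) was not called without it (-0.57, adjusted p = 0.173). The share of medulla in each kidney sample was not tested.

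Organic ion transporters were divided between the organs. Of 42 genes 40 were tested, 15 were higher in liver and 23 in kidney, 12 and 22 past 2-fold, with a median of -1.999. Past 2-fold were 30% and 55% of those tested, against 14.2% and 20.1% of all genes. In liver the uptake side was held by Slco1b2 (313, 409 and 445 against 0.12, 0.1 and 0 TPM, 12.99 ± 0.40, or 13.88 without the kidney of mouse 6) and Slc10a1. In kidney it was held by the anion transporters Slc22a6 (478, 421 and 484 TPM, no liver count, at least 24285-fold) and Slc22a8 (257, 268 and 313 TPM, a kidney to liver ratio of 37536 (95% counting interval 6737 to 1482600.0)) and the cation transporter Slc22a2 (212, 197 and 213 TPM, no liver count, at least 5872-fold). Each of these genes was below 1 TPM in every sample of the other organ. Slc22a7 was higher in kidney (158, 149 and 152 against 4.34, 19.9 and 27.8 TPM, -2.49 ± 0.37), and Slco1a1 was higher in liver (144, 164 and 208 against 121, 91.7 and 92.8 TPM, 1.34 ± 0.17).

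Efflux pumps were divided too. Abcc2, the apical anion pump, was at 120.0, 128 and 139.6 against 64.7, 58.7 and 69.2 TPM (1.47 ± 0.11), and Abcc3, which exports conjugates back to blood, at 83.4, 97.6 and 109.5 against 0.36, 0.58 and 0.42 TPM (8.35 ± 0.22). Slc47a1, the proton exchanger that secretes cations, was past 2-fold higher in kidney at 388, 362 and 381 against 53.6, 60.1 and 70.7 TPM (-2.02 ± 0.07). Abcg2, which pumps urate and many drugs, was higher in kidney (-1.19 ± 0.13) without passing the 2-fold test, and Abcc4 was past it (-2.68 ± 0.17). Abcb1b was not called (-0.09 ± 0.26). Of 28 solute and metal transporters fixed for hepatocytes 24 were higher in liver and 3 in kidney, 20 and 1 past 2-fold (2 by limma and 3 with total counts only), with a median of 3.28. Slc38a4 (amino acids, 453, 505 and 648 against 0.81, 0.54 and 0.87 TPM, 9.68 ± 0.19) and Tfr2 (iron sensing, 156, 166 and 179 against 0.11, 0.13 and 0.32 TPM, 10.40 ± 0.19) were among the liver genes. The zinc transporter Slc39a5 was the 1 past 2-fold in kidney (-4.97 ± 0.19), Slc27a2, a very long chain acyl-CoA synthetase, was called there by less (-1.03 ± 0.16), and Slc13a5, the citrate transporter, was low in both (0.18, 0.34 and 0.71 against 0.76, 1.41 and 1.16 TPM, -0.95 ± 0.36, adjusted p = 0.0323) and not called with mouse as a block (-0.69, adjusted p = 0.101).

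**Figure D2:**
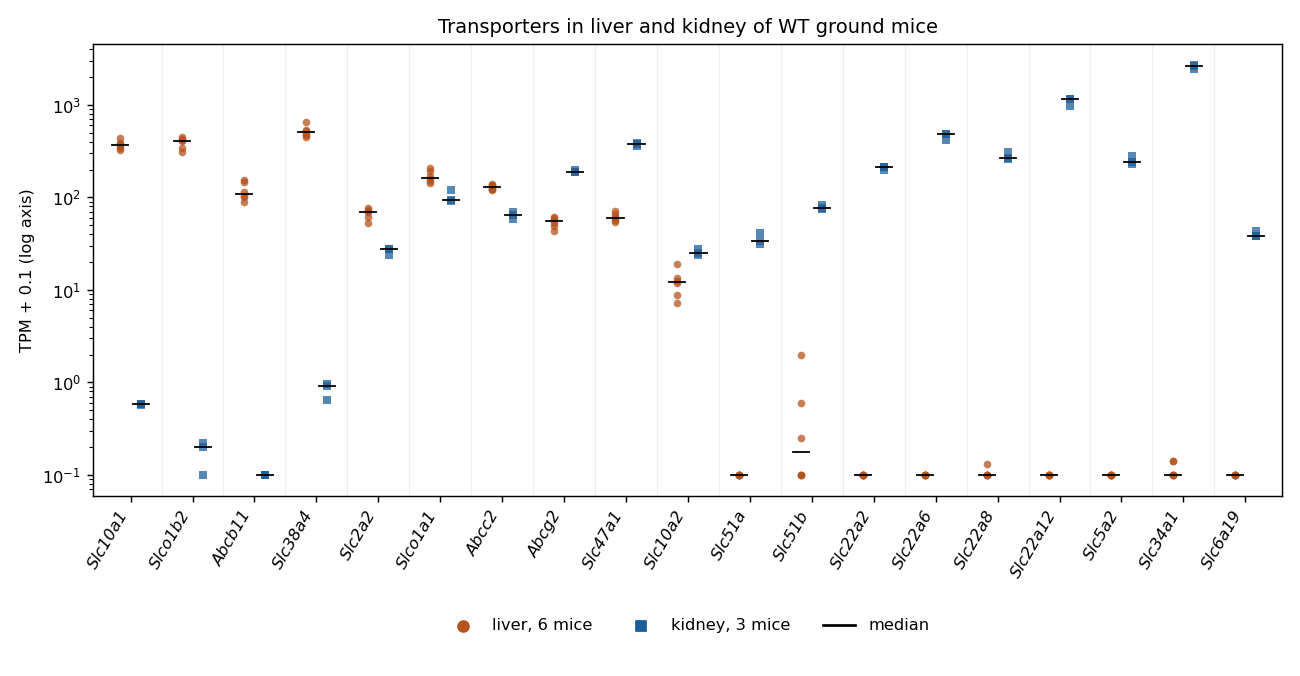
TPM + 0.1 on a log axis of 19 transporters in each of 6 livers (circles) and 3 kidneys (squares) of WT ground mice, with the median as a line. Slc10a1, Slco1b2, Abcb11 and Slc38a4 are high in liver and near the floor in kidney, Slc22a6, Slc22a12, Slc5a2 and Slc34a1 are the reverse, and Abcc2 and Abcg2 are present in both organs.

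Cytochrome P450 genes of families 1 to 3, which carry out the first oxidation of most drugs, were higher in liver with a kidney group of their own. Of 61 genes 48 were tested, 38 were higher in liver and 8 in kidney, 37 and 6 past 2-fold, with a median of 4.53 (4.41 with the 17 genes at 0 in 1 organ set at their bounds). Only 15 were at a mean TPM of at least 1 in both organs, 24 were in liver only, 6 in kidney only and 16 in neither. Cyp2e1, which oxidises ethanol and acetaminophen, was abundant in both, at 4081, 6361 and 7548 TPM in liver and 1594, 1279.5 and 1436 TPM in kidney (2.77 ± 0.24). Cyp3a11, the main drug-oxidising member, was at 2111, 2725 and 2893 TPM in liver and 0, 0.13 and 0 in kidney, a ratio of 90776 (95% counting interval 31062 to 440184). Cyp1a2, which oxidises caffeine, was at 314, 526 and 597 TPM in liver, Cyp2c50 at 437, 789 and 824 TPM, and both had no kidney count (at least 14641-fold and 18935-fold). All 13 tested Cyp2c genes and all 5 tested Cyp3a genes were past 2-fold higher in liver, and Por, which supplies their electrons, differed less (1.74 ± 0.22). Members of these clusters are near copies of each other, so their reads may be split between them.

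The Cyp2j cluster on chromosome 4 held several of the kidney genes. Cyp2j13 (4:96027534-96077546) and Cyp2j11 (4:96294508-96348662) were at 289, 238 and 267 and 141, 132 and 152 TPM in kidney with no liver count, at least 8429-fold and 3484-fold higher. Cyp2j5 (4:96628773-96664154), in the same cluster, was at 1032, 928 and 1073 TPM in kidney and 392, 434 and 478 TPM in liver (-0.61 ± 0.08). Cyp2j6 (4:96516138-96553661) went the other way, at 25.3, 28.3 and 31.8 against 12.7, 13.5 and 12.9 TPM (1.73 ± 0.09), and Cyp2j9 between them was not called (0.14 ± 0.12). Neighbouring genes of 1 cluster thus lay on both sides. Cyp2d12 (129, 111 and 95 against 0, 0.21 and 0.42 TPM, -8.58 ± 0.26) and Cyp1b1 (-3.92 ± 0.18) were also past 2-fold higher in kidney, while Cyp2d9 was higher in liver (630.3, 1319 and 1488 against 191, 175 and 195 TPM, 3.36 ± 0.31). Cyp2a4, a testosterone hydroxylase, was at 526, 516 and 576 TPM in kidney and had a median of 1.59 TPM in liver. The liver of mouse 8 alone stood at 167 TPM, the other livers were at 2.42 TPM or less, and the difference was -3.79 ± 1.35 (adjusted p = 0.0243), or -7.92 without that liver.

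Other phase I enzymes followed the liver with named exceptions. Of 59 genes 56 were tested, 43 were higher in liver and 12 in kidney, 41 and 7 past 2-fold, with a median of 2.36. Adh1, the main alcohol dehydrogenase, was at 1699, 1876 and 2175 against 535, 563 and 527 TPM (2.41 ± 0.10) and Aldh2, which clears acetaldehyde, at 1.84 ± 0.11. The carboxylesterases Ces1c (13.82 ± 0.22) and Ces3a (12.76 ± 0.23) were near absent from kidney, where Ces1f was higher (-0.36 ± 0.08, not called in a fit of all 8 liver and kidney groups). In the Akr1c family of hydroxysteroid reductases each organ had its own member. Akr1c6 was at 389, 459 and 589 TPM in liver and 0.07, 0.07 and 0.3 in kidney (12.17 ± 0.37, or 13.06 without the kidney of mouse 10), and Akr1c21 at 0, 0.09 and 0.17 and 771, 777 and 748 TPM (-12.15 ± 0.16). Fmo5 was higher in liver (4.04 ± 0.13) and Fmo2 in kidney (-3.15 ± 0.16). Akr1a1, which reduces glucuronate toward ascorbate, was higher in kidney (-1.80 ± 0.10). Nqo1, a quinone reductase and Nrf2 target, was at 55.3, 43.4 and 49.8 TPM in kidney and 3.24, 3.65 and 7.84 TPM in liver (-2.89 ± 0.19), and Ephx1, an epoxide hydrolase also regulated by Nrf2, was higher in liver (4.29 ± 0.21).

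**Figure D3:**
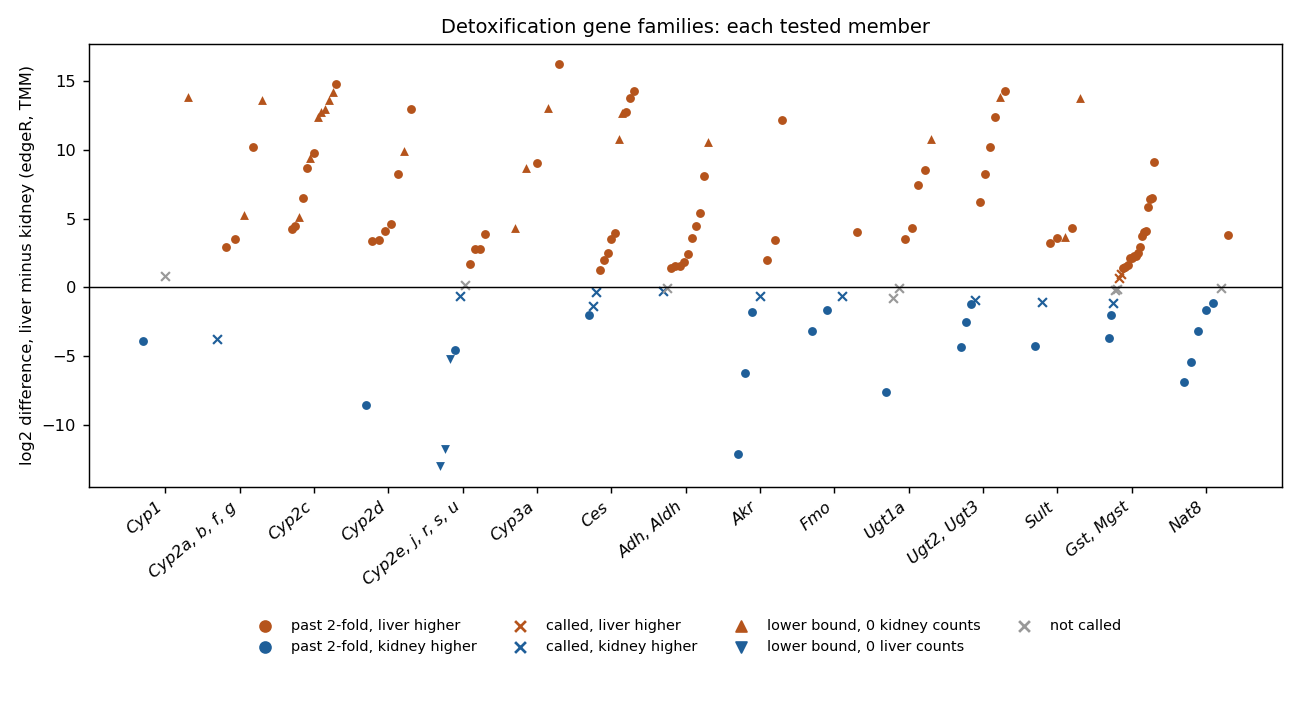
log2 difference, liver minus kidney, of each tested member of 15 detoxification gene families in WT ground mice (edgeR with TMM), with circles for genes past 2-fold, crosses for the rest and triangles for lower bounds of genes without a count in 1 organ. All members of Cyp2c and Cyp3a lie above 0, and the Cyp2d, Akr, Fmo, Ugt, Sult and Nat8 families have members on both sides.

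Conjugation genes lay on both sides within families. Of 40 genes of glucuronidation and sulfation 29 were tested, 17 were higher in liver, all past 2-fold, and 9 in kidney, 7 past 2-fold, with a median of 3.52. The shares past 2-fold were 58.6% and 24.1%, against 14.2% and 20.1% of all genes tested, so that of kidney was near the background. In the Ugt2b cluster on chromosome 5, Ugt2b1 (5:86916638-86926530) was at 307, 372 and 429.9 TPM in liver with no kidney count (at least 14631-fold) and Ugt2b5 (5:87124960-87140318) at 687, 792 and 903 against 1.29, 0.81 and 0.91 TPM (10.23 ± 0.22). Further along it, Ugt2b38 (5:87409942-87424203) was at 565, 559 and 549 TPM in kidney and 13.9, 17.1 and 26.1 TPM in liver (-4.32 ± 0.19), and Ugt2b37 was also higher in kidney (-2.53 ± 0.24). In the Ugt1a locus, Ugt1a1, which conjugates bilirubin, was at 355, 495 and 518 against 2.09, 1.96 and 1.63 TPM (8.58 ± 0.26), and Ugt1a7c was at 311, 273 and 335 TPM in kidney and 0.49, 0.885 and 1.98 TPM in liver (-7.61 ± 0.25). Ugt1a genes share their last exons, so only reads in first exons separate them. Sult2a8, a bile acid sulfotransferase, was at 342, 444 and 541 TPM in liver with no kidney count (at least 14149-fold), Sult1a1 was higher in liver (4.35 ± 0.18) and Sult1c2 in kidney (-4.24 ± 0.22). Papss1, which makes the sulfate donor, was higher in kidney (-2.05 ± 0.08), and Papss2 (-0.01 ± 0.14) and Ugt1a10 (-0.07 ± 0.46) were not called.

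Glutathione transferases were liver genes by count and by level. Of 27 genes 24 were tested, 18 were higher in liver and 3 in kidney, 16 and 2 past 2-fold, with a median of 2.11 and a summed TPM of 13481 to 15687 in liver and 2343 to 2385 in kidney. Mgst1, the microsomal form, was at 4539, 4785 and 5149 against 75.7, 85.7 and 87.3 TPM (6.46 ± 0.14). Gstp1 (2887, 3831 and 4572 against 343, 344 and 362 TPM, 4.07 ± 0.17), Gsta3 (1824, 2037 and 2614 against 185, 186 and 196 TPM, 4.05 ± 0.10) and Gstm1 (2.46 ± 0.16) followed it. Gstm5 (98.2, 114 and 96.1 against 4.37, 5.72 and 7.84 TPM, -3.71 ± 0.11) and Mgst3 (-2.01 ± 0.16) were the kidney genes, and Gsta2 was not called (38, 77.1 and 98.3 against 100.4, 101 and 141 TPM, -0.11 ± 0.24, adjusted p = 0.691).

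Of 25 genes of methyl, acetyl and acyl conjugation 24 were tested, 12 were higher in liver and 9 in kidney, 9 and 6 past 2-fold, with a median of 0.37 and a summed TPM of 2976 to 3698 in liver and 4388 to 5130.5 in kidney. That is 37.5% and 25% past 2-fold, against 14.2% and 20.1% of all genes tested. The kidney shares were near those of all genes, of which 38.4% were higher in kidney. The N-acetyltransferases of the Nat8 family, which finish mercapturic acids in the proximal tubule, were split, with 5 of 7 tested past 2-fold higher in kidney, Nat8f2 past 2-fold higher in liver (3.81 ± 0.25) and 1 past it in neither. Nat8 (-3.15 ± 0.17), Nat8f1 (-1.15 ± 0.08) and Nat8f6 (426, 304 and 252 against 2.44, 4.42 and 7.04 TPM, -5.44 ± 0.26) were among the 5, and these genes are near copies in 1 cluster, so their reads may be split. Keg1, a glycine acyltransferase-like gene, was at 1736, 1338 and 1713 against 211, 246 and 257 TPM (-2.11 ± 0.10). Glyat (-0.16 ± 0.08) and As3mt, the arsenic methyltransferase (26, 27 and 56.3 against 36.8, 32.4 and 41.3 TPM, 0.38 ± 0.19, adjusted p = 0.0879), were not called.

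Redox genes called in each organ were even in number, but more of those past 2-fold were in kidney. Of 46 genes 45 were tested, 18 were higher in liver and 18 in kidney, with a median of -0.07. Past 2-fold were 6 (3 by limma on TPM) and 12. The shares over all genes tested were 35.6% and 38.4%, with 14.2% and 20.1% past 2-fold. Gpx3 (11:54902453-54910377), the plasma glutathione peroxidase that kidney secretes, was at 18832, 18849 and 20130.1 TPM in kidney and 2.7, 5.09 and 9.12 TPM in liver (-11.19 ± 0.30). It was the second most abundant gene among those past 2-fold higher in kidney and the largest part of the list's summed TPM, which was 34461 to 36497 in kidney and 13664 to 15637 in liver. Most of the gap between these sums was Gpx3 alone. Gpx1, the cytosolic form, was abundant in both organs (2835, 2973 and 3854 against 2956, 2703 and 2803 TPM) and overlapped, and its log2 difference of 0.71 ± 0.13 was not called with total counts only (0.03, adjusted p = 0.796). Sod3 (-4.26 ± 0.11), Prdx5 (-2.23 ± 0.09), Gss, which completes glutathione (-1.82 ± 0.07), and Dpep1, which cleaves its breakdown product (-6.73 ± 0.16), were past 2-fold higher in kidney. Selenop, the selenium carrier made by liver, was at 4233, 4691 and 5562 against 2325, 1897 and 2230.0 TPM (1.74 ± 0.12), and catalase, Cat, at 1598, 1759.8 and 1899 against 772, 697 and 844 TPM (2.04 ± 0.12). The Nrf2 target Gclm (-0.14 ± 0.08) and metallothionein Mt1 (-0.12 ± 0.22) were not called in the fit of 9 samples, and with mouse as a block Mt1 was at -0.41 (adjusted p = 0.0495) on the 3 mice with both organs and Gclm at -0.15 (adjusted p = 0.0499) as a random term. Nfe2l2 itself was at 34.8, 42.2 and 57.2 TPM in liver and 48.6, 53.8 and 57.6 TPM in kidney with overlap. Its log2 difference of 0.29 ± 0.10 (adjusted p = 0.0189) was not called with upper quartile scaling or without the kidney of mouse 6 or 7, and turned to -0.39 with total counts only.

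Transcription factors were split evenly, with the factors at both ends nearly private to 1 organ. All 50 were tested, 25 were higher in liver and 24 in kidney, 20 and 24 past 2-fold, with a median of 0.18. That is 40% and 48% past 2-fold, against 14.2% and 20.1% of all genes tested. Creb3l3, a secretory and fasting regulator (173, 179.6 and 187 against 0.4, 0.27 and 0.22 TPM, 9.82 ± 0.18), and Nr1i3, the xenobiotic receptor CAR (123, 165 and 203 against 0.03, 0.15 and 0.14 TPM, 10.96 ± 0.38), marked liver. Onecut1 was at 10.3, 19.7 and 51 TPM in liver with no kidney count (at least 1655-fold), and Rxra (2.17 ± 0.09), Cebpa (3.82 ± 0.13), Ppara (2.74 ± 0.23) and Ahr, the dioxin receptor (3.92 ± 0.20), were past 2-fold higher in liver. Vdr, the vitamin D receptor (97.9, 99.9 and 111 against 0, 0 and 0.09 TPM, -11.61 ± 0.27, or -13.24 without the liver of mouse 7), Hoxd8 (a ratio of 3924 (95% counting interval 704 to 154978)), Pax8 (-8.98 ± 0.23) and Pax2 (no liver count, at least 844-fold) marked kidney.

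A ratio of 2 genes in 1 sample does not depend on the scaling between organs, and 31 pairs that share an activity were compared in this way as log2 of the first gene's TPM + 0.1 over the second's. The pairs set a gene known from liver against one known from kidney or other tissues, with earlier results of these data known, so their ratios are given as a description with no test. The samples of the organs did not overlap in 30 of 31 pairs, while single genes did not overlap for 73.6% of all genes tested. The share among gene pairs chosen without regard to organ was not computed. In 25 pairs the more abundant gene was a different one in each organ. The pairs furthest apart were Akr1c6 over Akr1c21, at 11.29 ± 0.69 in liver (mean ± SD, n = 6) and -11.72 ± 0.74 in kidney (n = 3), and Hao1 over Hao2, at 10.28 ± 0.47 and -9.99 ± 0.28. Mat1a over Mat2a was 5.17 ± 0.31 and -10.83 ± 0.29, and Arg1 over Arg2 12.51 ± 0.60 and -4.57 ± 0.32. Gpx1 over Gpx3 went from 9.24 ± 0.64 to -2.77 ± 0.09. In a few pairs the same gene led in both organs by different margins, as for Gstm1 over Gstm5 at 8.42 ± 0.49 and 2.46 ± 0.11 and Pck1 over Pck2 at 9.77 ± 0.75 and 7.94 ± 0.19. Prodh over Prodh2 was higher in kidney, at -0.11 ± 0.17 in liver and 2.004 ± 0.0587 in kidney, as was Gpt over Gpt2 with overlap, at -0.39 ± 0.13 and -0.12 ± 0.25. A pair with 1 gene near 0 TPM has a ratio that depends on the 0.1 that was added.

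**Figure D4:**
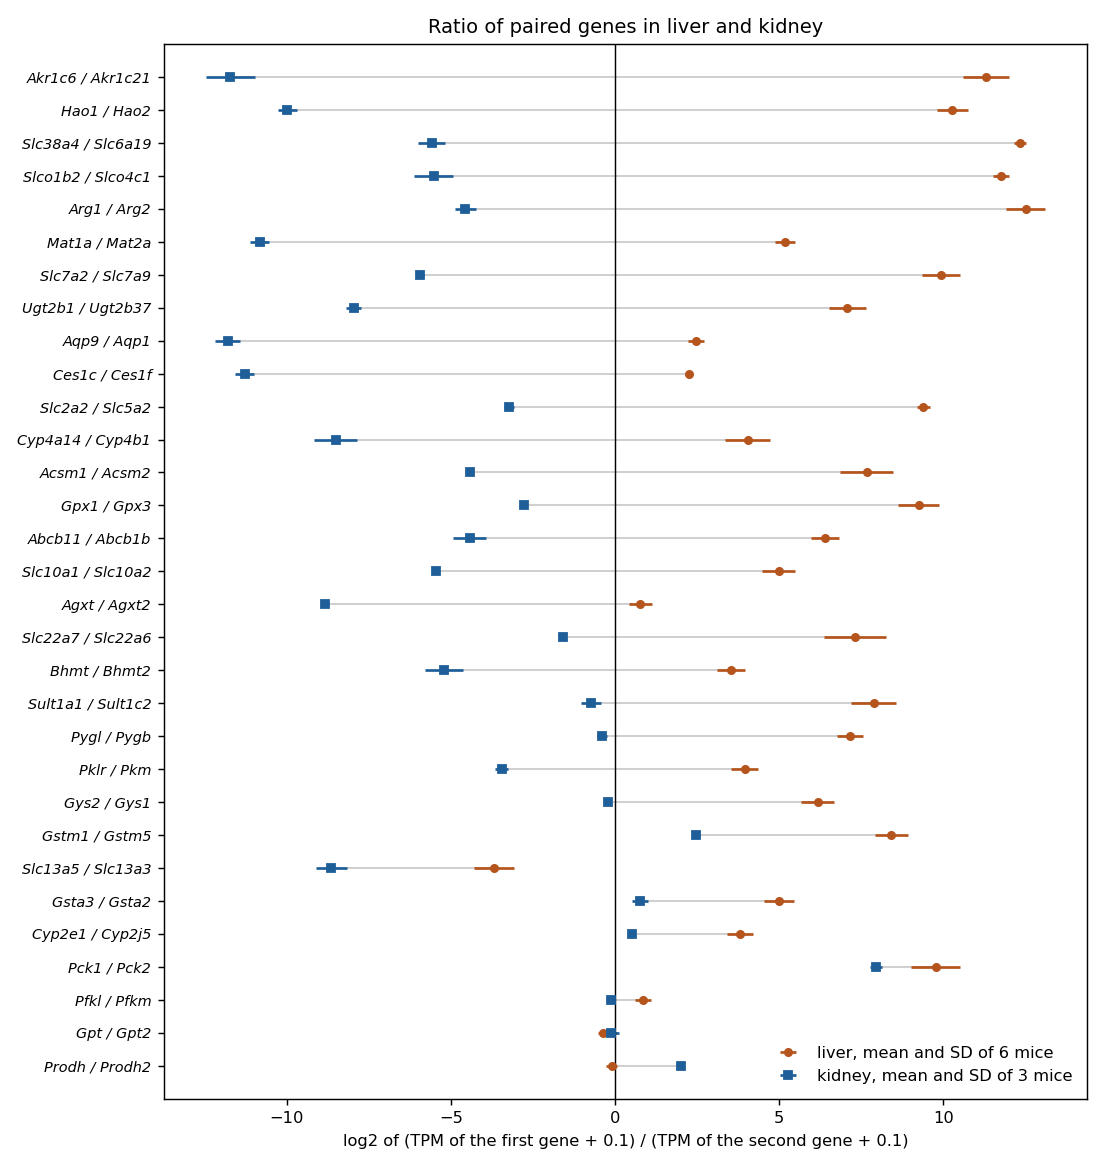
log2 ratio of the TPM + 0.1 of 31 gene pairs in liver (circles, mean and SD of 6 mice) and kidney (squares, mean and SD of 3 mice) of WT ground mice. In 25 pairs the organs lie on opposite sides of 0, and Prodh over Prodh2 and Gpt over Gpt2 are the pairs whose ratio is higher in kidney.

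Livers varied more from mouse to mouse than kidneys. Over list genes whose mean level was 10 TPM or more, the highest liver was a median of 1.41 times the lowest (525 genes, 88 at 2 times or more), and the highest kidney 1.14 times (511 genes, 4 at 2 times or more). The groups have 6 and 3 samples, and a range grows with the number of samples.

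The same contrast was available in mice that share no sample with these: ground Nrf2KO mice (GC_KO, germline deletion of Nfe2l2), flight WT mice (FL_WT, returned from a stay on the space station) and flight Nrf2KO mice (FL_KO), each with 6 livers and 3 kidneys by label. Mouse 4 of FL_KO was left out here, which leaves 5 livers in that group. All 518 list genes past 2-fold in GC_WT had the same direction in each of these groups, and 494, 499 and 484 of them were past 2-fold again in GC_KO, FL_WT and FL_KO (95.4%, 96.3% and 93.4%). Over all genes past 2-fold in GC_WT the shares were 90.6%, 91.3% and 88.0%, with the same direction in 99.9%, 99.98% and 99.8%, so the list genes were near that background. The targeted gene, Nfe2l2, was at 13.1 to 17.3 TPM in GC_KO livers and 22.0 to 27.2 TPM in GC_KO kidneys, below every GC_WT sample of the same organ. Which part of the transcript those reads came from was not tested.

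Whether the difference between organs itself changed with genotype was tested as an interaction of tissue and genotype among ground mice, in a fit of all 8 liver and kidney groups. Of 16124 genes 71 (0.44%) were called, 34 with a larger liver minus kidney difference in Nrf2KO and 37 with a smaller one, and the 34 became 17, 20, 20 and 21 without the kidney of GC_KO mouse 12, GC_WT mouse 6, GC_WT mouse 10 or GC_KO mouse 11, and the 37 became 24 without that of GC_WT mouse 7. Among 754 tested list genes 18 were called, 9 with a larger difference and 9 with a smaller one. Gsta3 was at 185, 186 and 196 TPM (lowest, median, highest) in WT kidneys and 21.6, 23.6 and 23.8 TPM in Nrf2KO kidneys, and at 1824, 2037 and 2614 and 1265, 1329 and 1943 TPM in livers. The organ difference went from 4.06 to 6.58 on the log2 scale, an interaction of 2.52 ± 0.17 (adjusted p = 6.03e-12). Serpina1a (3.71 ± 0.24, adjusted p = 2.08e-12) and Slc38a3 (3.45 ± 0.38, adjusted p = 8.22e-07) also had a larger difference in Nrf2KO, with kidney levels of 3.92, 5.65 and 7.72 and 1.42, 1.49 and 1.76 TPM in the knockout. The Serpina1 genes are near copies.

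Among genes with a smaller difference in Nrf2KO, Ugt2b5 was at 687, 792 and 903 TPM in WT livers and 229.8, 258 and 283 TPM in Nrf2KO livers, and its organ difference went from 10.23 to 7.14 (-3.10 ± 0.23, adjusted p = 4.35e-11). Abcc3 was at 83.4, 97.6 and 109.5 and 9.27, 14.7 and 19 TPM in livers (-2.58 ± 0.42, adjusted p = 0.000674), which was not called with mouse as a random block (adjusted p = 0.145). Ephx1, at 304, 386 and 477 and 107, 124 and 133 TPM in livers, followed the same pattern (-1.53 ± 0.21, adjusted p = 5.35e-05), as did As3mt at 26, 27 and 56.3 and 7.79, 9.37 and 11.6 TPM (-1.64 ± 0.22, adjusted p = 2.3e-05). Kidney levels of both overlapped between genotypes. Nqo1, the Nrf2 target named above, was lower in both Nrf2KO organs, at 0.77, 1.04 and 1.35 TPM in livers and 14.2, 14.4 and 14.8 TPM in kidneys, and its interaction of -0.26 ± 0.31 was not called (adjusted p = 1).

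**Figure D5:**
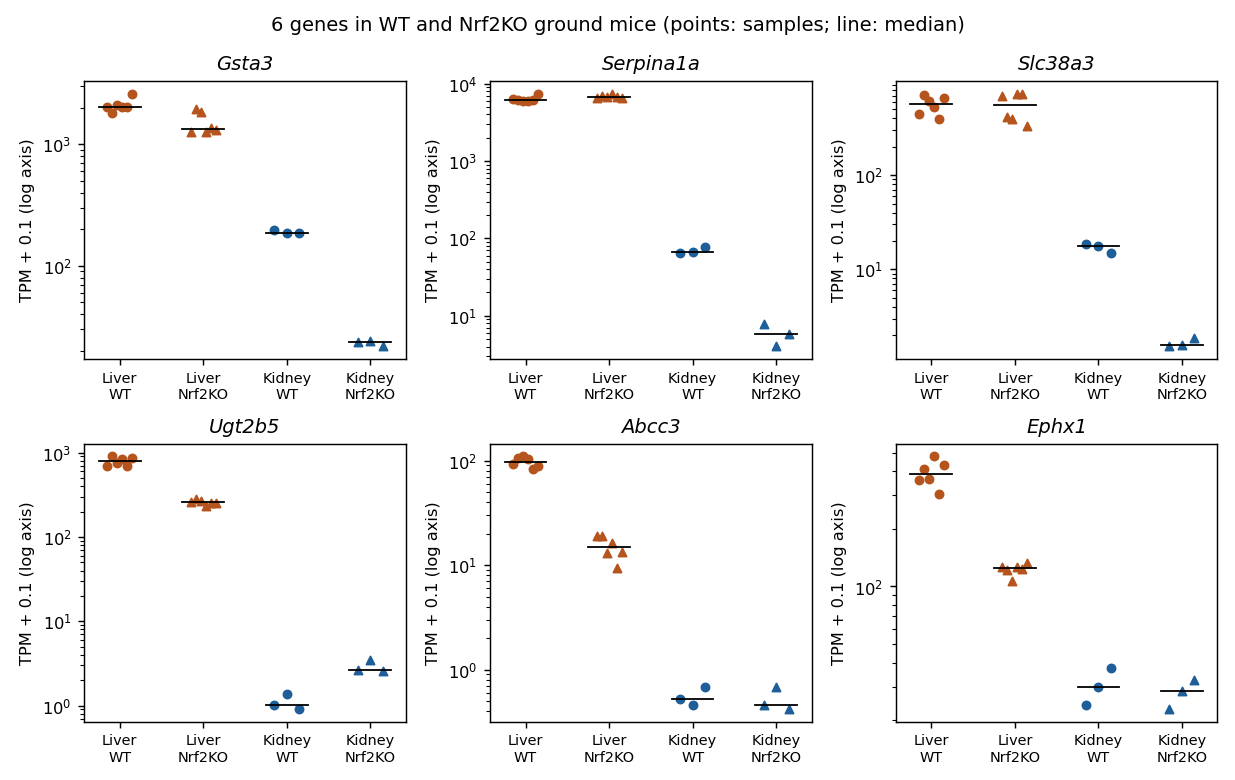
TPM + 0.1 on a log axis of 6 genes in liver (6 WT and 6 Nrf2KO) and kidney (3 and 3) of ground mice, with each sample as a point and the median as a line. Gsta3, Serpina1a and Slc38a3 are lower in Nrf2KO kidneys, and Ugt2b5, Abcc3 and Ephx1 are lower in Nrf2KO livers.

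The interaction of tissue and flight in WT mice shares the GC_WT samples with the test above. It called 13 of 16124 genes (0.0806%), 6 of them in the lists. Apoa4, a lipoprotein gene of fasting liver and intestine, was at 42.6, 69.3 and 74.5 TPM in ground livers and 661, 1035 and 1584 TPM in flight livers, with kidneys at 8.63, 10.2 and 10.6 and 10.9, 11.5 and 11.9 TPM (3.85 ± 0.32, adjusted p = 3.46e-09). Ugt1a10 was at 0.73, 0.98 and 2.91 TPM in ground and 14, 15.8 and 18.4 TPM in flight kidneys (-3.46 ± 0.53, adjusted p = 0.00168, or -4.28 without the kidney of GC_WT mouse 10), and Ugt1a1 moved the same way (-1.50 ± 0.25, adjusted p = 0.00581), but was not called with mouse as a random block (adjusted p = 0.0604) or without the kidney of GC_WT mouse 10. Ldha (0.59 ± 0.11), Selenop (0.77 ± 0.15) and Apoc3 (-1.01 ± 0.18) were the others, and each was lost on leaving out the kidney of FL_WT mouse 5 or of GC_WT mouse 6. The number of flight calls rested on single libraries, with 7 genes larger and 6 smaller in flight in the full fit, 2 and 3 without the kidney of FL_WT mouse 5, 2 and 2 without that of GC_WT mouse 6, and 13 and 17 without the liver of FL_WT mouse 7. With mouse as a random block it was 27 and 24.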

How the data were processed

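Poly(A) RNA was made into strand-specific SureSelect libraries and sequenced as single reads on a HiSeq2500. Per the study's methods and the submitters' processing notes, the authors ran bcl2fastq, aligned reads with STAR (2.6.1) to mm10 and quantified genes with RSEM (1.3.1). The authors deposited 1 table of 54752 genes that holds, for each sample, the expected counts that RSEM assigned to a gene, unscaled and not whole for reads shared between genes, and TPM, which RSEM scaled to transcript length and library. The deposited FPKM columns (192) were not used. The strand setting and the extraction kit used for each tissue are not given in the sources used here. No per-sample column was left unmapped.

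Samples were grouped by their labels. Expected counts were rounded (94.7% of values, zeros included, were exactly whole as deposited), and genes were kept by edgeR's filterByExpr, scaled by TMM and tested between the 6 livers and 3 kidneys with edgeR 4.0.16 (glmQLFit and glmQLFTest, two-sided, Benjamini-Hochberg over all genes tested; glmTreat for the 2-fold null) in R 4.3.3. SE is the log2 difference divided by the square root of the F statistic. Genes without a count in 1 organ are given as bounds at 3 counts over that group, and those with 1 to 3 counts as ratios with an exact Poisson interval, which covers counting error only. Depth limits only the lowest levels here. Ratios of gene pairs were computed in Python 3.11.15 and are given with no p-value. The procedure was tested on simulated counts drawn from the liver means, with a small set of genes changed in both directions. Such counts cannot test the scaling between organs in which most genes differ. Interactions were tested in 1 fit of all liver and kidney groups, FL_KO mouse 4 left out.

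The mouse numbers pair the samples, because livers and kidneys of mice 6, 7 and 10 came from the same animals. Deviations from the group means of the same mouse correlated at 0.23, 0.23 and 0.36 over 7334 genes. Alternatives were the mouse as a fixed or random block, DESeq2 1.42.0, limma 3.58.1 on log2(TPM + 1) and log2(TPM + 0.1), RLE, upper quartile or no scaling factors, no filter, all groups in 1 fit, each sample left out and, for interactions, only their 4 groups or FL_KO mouse 4 included. The same 3 mice without a block and, for gene pairs, pseudocounts of 1 and 0.01 and each sample left out were chosen after the data were seen.

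The samples, the gene lists and the comparisons were chosen with earlier results of these data known. Genes named were drawn from the following groups, and not every gene of a group is given in the text. For each list there were up to 4 per direction past 2-fold with the highest TPM. Up to 2 per list were not called and had a mean TPM of at least 5. The other groups were members of pairs and marker lists and the 5 most abundant past 2-fold over all genes in each organ. Up to 4 per direction of each interaction, and Nfe2l2, complete them. Among those not given are the abundant liver genes Mup-ps17, Gm21320 and Mup14 and the abundant kidney genes Fth1 and Gm28438. Pair members such as Aqp9 and Slc7a2 are not given either. G6pc, Fbp1, Khk, Otc, Ass1, Glul, Tdo2, Scd1, Sqle, Cyp7a1, Cyp8b1, Uox, Xdh, Slc22a8, Abcc3, Abcg2, Cyp1a2, Por, Cyp2a4, Onecut1, Gckr, Idh3a, Fh1, Slc14a2, Fxyd4, Akr1b3, Slc27a2, Cyp2c50, Cyp2j6, Fmo5, Gss, Dpep1, Ppara and Ahr were added after their values were seen. Results of some genes and of 5 gene pairs are not reported here. Promoter sequences are those of RefSeq (GRCm38.p6), and gene positions come from the GENCODE annotation of GRCm38.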

Additional observations from a re-analysis of the deposited data

Results flagged for a closer look

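Of 205 named genes with a liver at 1 TPM or more, 34 (16.6%) had an outlying liver. Its gap to the nearest other liver was above Dixon's 95% critical value of 0.625 for 6 samples. Of the 34, 28 were in the liver of mouse 8. Some of the 205 were added after their values were seen, and all share the same livers. The share is thus a description and cannot be set against a share by chance. Kidney, with 3 samples, was not examined. The liver of mouse 8 was highest, in TPM with the nearest liver in brackets, for the plasma proteins Alb 57850.5 (47209.8), Apoa1 12970.3 (10331.3), Serpina1a 7432.26 (6275.32) and F2 1158.66 (977.4). It was highest for the nitrogen and amino acid genes Arg1 1331.52 (993.93), Asl 600.35 (473.5), Ass1 4164.59 (2770.37), Gls2 312.23 (165.32) and Mat1a 1639.28 (1139.37), and for the glucose genes Fbp1 980.24 (703.89), Gckr 67.45 (53.44), Pfkl 17.27 (13.3), Aldoa 107.17 (85.15) and Pck2 1.79 (1.23). It was highest for the detoxification genes Gsta3 2613.98 (2096.24), Sult1a1 497.45 (331.78), Ces1f 412.89 (313.86), As3mt 56.32 (29.75), Nqo1 7.84 (4.71), Akr1b3 5.78 (3.93) and Cyp2a4 166.99 (2.42), and for Alas2 116.62 (99.07), Cyp17a1 38.51 (7.36), Atp1b1 58.42 (35.92) and Slc22a18 78.99 (64.49). It was lowest for Cyp2d9 630.27 (1202.71), Cyp2c50 436.51 (723.08) and Glul 222.54 (400.78). The liver of mouse 10 was highest for Slc51b 1.86 (0.5) and Cyp2f2 1388.97 (1179.81), that of mouse 7 highest for Pvalb 1.2 (0.33) and Acta1 2.65 (0.72) and lowest for Gpt 173.29 (191.39), and that of mouse 5 lowest for Ces3a 1175.21 (1259.64). Without the liver of mouse 8, 5287 genes were higher in liver and 5698 in kidney. What sets that liver apart was not tested.

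The difference between organs depended on genotype by the test of the interaction itself (edgeR's quasi-likelihood test, Benjamini-Hochberg adjusted) for 18 list genes, most of which are given here. The interaction, Nrf2KO minus WT of the log2 liver minus kidney difference, was positive for Serpina1a (3.71), Slc38a3 (3.45), Gsta3 (2.52), Apoh (1.47), Mgst1 (1.198), Slc13a3 (1.13), Dpys (1.04), Aldh1l1 (0.68) and Uroc1 (0.66). It was negative for Ugt2b5 (-3.10), Abcc3 (-2.58), Scd1 (-1.90), Gsta2 (-1.88), Slc1a2 (-1.69), As3mt (-1.64), Ephx1 (-1.53) and Gsta4 (-1.12). The flight interaction in WT mice, flight minus ground, was positive for Apoa4 (3.85), Selenop (0.77) and Ldha (0.59) and negative for Ugt1a10 (-3.46), Ugt1a1 (-1.50) and Apoc3 (-1.01). At an unadjusted p under 0.05 there were 986 genes for genotype and 1279 for flight, and these tests share the GC_WT samples.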

How the results depend on the processing

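Counts of genes called were within 1.5 times of 5312 in liver and 5728 in kidney, and of 2124 and 2999 past 2-fold, with DESeq2 (5236 and 5702, 1832 and 2605 past 2-fold), RLE factors (5231 and 5787), upper quartile factors (4414 and 6724), no filter (5564 and 6785 of 26450 genes) and all 8 groups in 1 fit (5406 and 6156). Leaving out each sample gave 4988 to 5298 and 5416 to 5716, and 2039 to 2115 and 2886 to 3044 past 2-fold. Liver calls fell to 1978 (941 past 2-fold) by limma on log2(TPM + 0.1) and 1990 (907) on log2(TPM + 1), both on 10152 genes, and to 2545 (1370) with total counts only, where kidney had 9681 (4750). These settings turned the sign of small differences. With total counts only, limma on log2(TPM + 0.1) and limma on log2(TPM + 1), in that order, Pcx was at -0.52, -0.45 and -0.45, Aldh6a1 at -0.63, -0.56 and -0.55, Slc16a12 at -0.66, -0.60 and -0.58, Cyp2j9 at -0.54, -0.47 and -0.42, Pfkl at -0.60, -0.54 and -0.51, Hnf4a at -0.11, -0.064 and -0.064, Nfe2l2 at -0.39, -0.33 and -0.32, Ass1 at -0.22, -0.17 and -0.17, Fbp1 at -0.14, -0.081 and -0.081, and Glul at -0.091, -0.064 and -0.064. Srebf2 (-0.40) and Ptprc (-0.55) turned with total counts only. Over the named genes and settings, 4824 values kept the call, 91 gained it, 39 lost it and 32 turned sign. Sign was compared only where the main fit or the alternative called the gene. A gene called in neither counts among the 4824 even if its sign turned.

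The replicate block, mouse as a fixed term on the 3 mice with both organs (14704 genes), called 5204 and 5561 genes, 2048 and 2926 past 2-fold, and mouse as a random term on all 9 samples 5484 and 6039, 1909 and 2891 past 2-fold. The same 3 mice without the block, chosen after the data were seen, gave 5091 and 5489, fewer than with it. Beside the blocked values given with their genes, the random term lost the interaction of Dpys with genotype (adjusted p = 0.0637) and left 1 of the other cell markers past 2-fold in kidney, and the block changed no other call of a named gene.

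The genotype interaction called 34 genes with a larger and 37 with a smaller difference in Nrf2KO, against 58 and 62 with DESeq2 and 61 and 82 by limma. Leaving out 1 sample gave 17 to 36 and 24 to 43, with 21 and 17 positive calls without the kidneys of GC_KO mice 11 and 12, 20 without that of GC_WT mouse 6 or mouse 10, and 24 negative calls without that of GC_WT mouse 7. The flight interaction called 7 and 6 genes, against 37 and 44 with DESeq2, 40 and 42 by limma, 16 and 10 with only the 4 groups, and 27 and 24 with the replicate block as a random term. Leaving out 1 sample gave 2 to 13 and 1 to 17, with 4 and 3 without the kidney of FL_WT mouse 8, 4 and 1 without that of GC_WT mouse 10, and 10 negative calls without the liver of GC_WT mouse 6. Serpina1a, Gsta3, Ugt2b5, Slc38a3, Apoh, As3mt, Ephx1, Mgst1, Gsta4, Apoa4 and Ugt1a10 were called under every alternative run. Gsta2, Scd1, Slc13a3, Slc1a2, Dpys, Uroc1, Aldh1l1, Apoc3, Ldha, Selenop and Ugt1a1 each lost the call on leaving out at least 1 sample. The cause was not tested. The 25 pairs led by different genes, the 30 that separated the organs and the 29 with the higher ratio in liver kept their counts on leaving out each sample and with pseudocounts of 0.01 and 1, except that 29 separated the organs with a pseudocount of 1. With 3 kidneys, the spread in kidney is the least well known quantity here.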

Other observations

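Some genes of the daily clock, noted after their values were seen, differed widely between mice in both organs, and others differed less. Dbp, a clock output factor, was at 42.0, 29.5, 20.7, 5.82, 9.02 and 6.21 TPM in the livers of mice 3, 5, 6, 7, 8 and 10 and at 32.7, 11.7 and 8.63 TPM in the kidneys of mice 6, 7 and 10. Nr1d1, a clock repressor, was at 23.8, 14.1, 10.1, 2.82, 2.59 and 1.48 TPM in liver and 6.76, 3.42 and 2.44 TPM in kidney. Arntl, which drives the opposite phase, was at 4.11, 6.32, 5.85, 11.3, 17.8 and 14.99 TPM in liver and 5.12, 13.4 and 17.5 TPM in kidney. Per1 (4.08 to 33.8 TPM) and Ciart (2.83 to 22.0 TPM) also ranged widely among livers. Per2 (25.4 to 30.6 TPM), Tef (37.6 to 59.9 TPM) and Per3 (4.42 to 8.92 TPM) ranged less. Mouse 6 had the highest Dbp and the lowest Arntl of the 3 mice with both organs. Lpin1, whose livers overlapped the kidneys, ran with Dbp and Nr1d1, at 270, 175, 156, 56.0, 21.1 and 20.8 TPM in liver. The time at which each mouse was killed is not given in the sources used here, and its part in these values was not tested.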
